A study of Mus musculus with 28 samples.

Results

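Palmitate was set against mock treatment in the RNA that came down with wild-type PKR in the second of the study's replicated datasets, dataset B. The members are all samples of dataset B whose labels give wild-type PKR: 3 libraries from cells given 0.1 mM palmitic acid and 3 libraries from mock-treated cells, 6 of the 28 samples of the series. The cells were mouse embryonic fibroblasts (MEFs) in which PKR had been put back, either as the wild-type protein (WT) or as a form with a mutation in each double-stranded RNA-binding motif (RM). The labels call the replicates biological but do not say whether a cell line is a clone, and the mark "2hr" in the column names of dataset B is not explained. Besides the 6 WT libraries, dataset B held 3 RM palmitate and 3 RM mock libraries, and dataset A held the same 4 groups with 3 libraries each. The series was designed to find RNAs enriched with WT PKR after palmitate, and its title concerns small nucleolar RNAs (snoRNAs). Here the weight is on messenger RNAs.

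PKR, encoded by Eif2ak2, is a kinase that binds double-stranded RNA through its RNA-binding motifs and then phosphorylates the translation initiation factor eIF2-alpha. Palmitate, a saturated fatty acid, is a ligand of the peroxisome proliferator-activated receptors (PPARs), which raise genes of fatty acid use, and in excess it is a metabolic stress. Sterols and unsaturated fatty acids feed back on the sterol regulatory element-binding proteins (SREBPs), which drive cholesterol and fatty acid synthesis.

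Every level below is a count scaled to library size after TMM normalization, in the usual unit CPM, of RNA recovered with PKR. No input RNA and no control precipitate is among the samples used, so a change in an RNA's abundance in the cells and a change in its recovery with PKR cannot be told apart. In such bulk samples fewer cells of a type and less RNA per cell cannot be told apart either. Differences are log2 fold changes, palmitate minus mock, with their standard error (SE), from edgeR's quasi-likelihood test over the 12 libraries of dataset B, and a feature was called at an adjusted p under 0.05. Total counts were 3543807 to 5801911 in the palmitate libraries and 5380492 to 6619405 in the mock libraries. Among the mock libraries replicate 1 stood apart, with Spearman correlations of 0.952 and 0.963 across features with the others of its group, against at least 0.983 among the palmitate libraries. Fibroblast markers summed to between 22072 and 24712 CPM in palmitate libraries and between 17738 and 19651 in mock libraries. All 7 adipocyte markers were at 0 in the 6 libraries, as were 6 of 11 markers of macrophages and lymphocytes, 3 of 8 of endothelium, 1 of 9 of epithelium and 2 of 8 of muscle and neural cells. The PKR transcript Eif2ak2 had 8, 9.64 and 7.35 CPM with palmitate and 8.81, 7.61 and 7.52 CPM with mock. These values overlapped, and the log2 fold change was 0.04 ± 0.23 (SE, adjusted p = 0.921).

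Of 12466 features tested, 1938 (15.5%) were called, 1175 (9.43%) higher and 763 (6.12%) lower with palmitate. Among the 10896 protein-coding features tested, 843 (7.74%) were higher and 748 (6.86%) lower, and these shares are the background against which each gene list below can be read. The number called over all features depended on the libraries: it was 1075 without mock replicate 2, 1275 without palmitate replicate 1, 1163 without palmitate replicate 2 and 923 without palmitate replicate 3, all of which leave fewer samples. None of the calls changed sign in the 6 fits that left out 1 of these libraries. All the lists were chosen with earlier results of these data known, so that their counts and medians are descriptions.

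**Figure D1:**
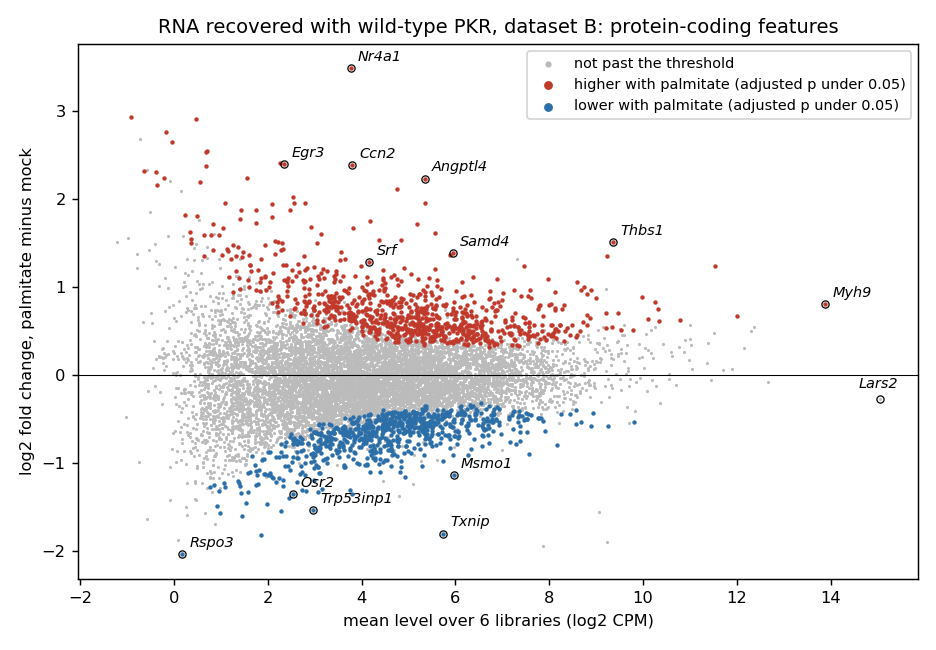
Log2 fold change (palmitate minus mock, wild-type PKR, dataset B) of each protein-coding feature tested, against its mean level over the 6 libraries in log2 CPM. Red and blue points are the 843 features called higher and the 748 called lower, grey points were not called, and circled genes are named in the text. Nr4a1 lies highest at 3.49 and Rspo3 lowest at -2.04.

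The largest rise among messenger RNAs was that of Nr4a1, an orphan nuclear receptor and immediate early gene (mm9, chr 15, 101097277 to 101105223, plus strand). Nr4a1 had 32.6, 18.2 and 24.2 CPM in the palmitate libraries and 1.93, 2.44 and 2.34 CPM in the mock libraries. The groups were far apart, with a log2 fold change of 3.49 ± 0.24 (SE, adjusted p = 4.17e-07). Egr3, a zinc-finger transcription factor of the immediate early kind, had 11.4, 7.55 and 6.85 CPM with palmitate and 1.52, 1.67 and 1.67 CPM with mock, a log2 fold change of 2.40 ± 0.29 (SE, adjusted p = 0.000127). Of the 42 tested members of the list of orphan nuclear receptors and immediate early genes, 14 rose and 1 fell, and the median log2 fold change was 0.52, against -0.06 over all protein-coding features tested. Besides Nr4a1 and Egr3 the risen members included Egr2 (1.72), Srf (1.28), Maff (1.13), Junb (0.92), Fosl1 (0.85) and the clock genes Per2 (0.92) and Per1 (0.72). Srf encodes the serum response factor, which drives many immediate early and actin genes. Its level was 27.5, 26.8 and 21.9 CPM with palmitate, against 9.50, 8.98 and 12.9 CPM with mock, with no overlap. Klf2, a Krüppel-like factor, was the member that fell (log2 fold change -0.59 ± 0.14, SE, adjusted p = 0.00859), and 2 were lower without mock replicate 1 or palmitate replicate 1. Members that did not pass included Egr1, at a log2 fold change of 0.21 ± 0.45 (SE, adjusted p = 0.787), and Myc, at -0.12 ± 0.12 (SE, adjusted p = 0.557).

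Promoter sequences are shown for Srf and for 3 other called genes of the lists because their windows hold the serum response element, the binding sequence of the factor that Srf encodes. This sequence was searched on both strands, by its consensus with an A- or T-rich centre between paired C and G bases, in the RefSeq promoter windows (GRCm38.p6) of 300 bases, 250 before and 50 after each start. It was found in 17 of 657 genes with a window among those called higher (2.59%), in 6 of 556 among those called lower (1.08%) and in 136 of 8577 of all tested protein-coding genes (1.59%). Of the 42 immediate early genes 30 had a window, and 3 of these (10%) held the sequence. The genes shown were chosen after their values were seen, and of Egr2's several windows 1 is given. Only the 250 bases before the start are printed, from 5′ to 3′, and the capitals mark the serum response element. The windows are Srf, chr17:46556163-46556412 on the minus strand; Dusp5, chr19:53528895-53529144 on the plus strand; Egr2, chr10:67537619-67537868 on the plus strand; and Vcl, chr14:20929148-20929397 on the plus strand.
Srf: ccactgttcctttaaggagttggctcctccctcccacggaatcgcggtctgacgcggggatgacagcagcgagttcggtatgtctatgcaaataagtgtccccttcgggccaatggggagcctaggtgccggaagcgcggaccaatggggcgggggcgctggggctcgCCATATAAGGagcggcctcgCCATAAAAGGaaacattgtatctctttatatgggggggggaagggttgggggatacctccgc
Dusp5: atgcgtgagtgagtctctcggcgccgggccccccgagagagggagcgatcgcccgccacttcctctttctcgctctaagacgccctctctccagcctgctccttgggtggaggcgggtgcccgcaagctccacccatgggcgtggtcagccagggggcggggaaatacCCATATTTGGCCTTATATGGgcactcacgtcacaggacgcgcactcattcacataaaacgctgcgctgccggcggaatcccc
Egr2: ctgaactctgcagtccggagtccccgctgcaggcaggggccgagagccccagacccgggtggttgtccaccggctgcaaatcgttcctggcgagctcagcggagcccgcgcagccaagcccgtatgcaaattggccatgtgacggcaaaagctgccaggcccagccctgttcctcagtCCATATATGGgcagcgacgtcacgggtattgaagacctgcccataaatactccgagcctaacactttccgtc
Vcl: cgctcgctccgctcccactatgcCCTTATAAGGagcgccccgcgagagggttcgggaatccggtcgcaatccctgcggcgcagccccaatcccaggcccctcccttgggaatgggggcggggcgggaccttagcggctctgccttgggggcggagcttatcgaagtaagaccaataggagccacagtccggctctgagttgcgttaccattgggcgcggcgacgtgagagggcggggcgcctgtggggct

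The windows of Srf and Dusp5 hold the element at a pair of places each, and those of Egr2 and Vcl at a single place. All 4 genes were called higher: Dusp5, a phosphatase that switches off the kinase ERK, by 1.11 ± 0.25 (SE, adjusted p = 0.00873), and Vcl, which encodes the adhesion protein vinculin, by 0.80 ± 0.14 (SE, adjusted p = 0.00152). These are matches of letters in a window and not shown to be sites of binding. The 6 genes with the element that were called lower include Tyms (-0.45) of the DNA replication list, Ckap2l (-0.83) of the mitosis list and Herpud1 (-0.74) of the stress list. The letters of the PPAR response element, a direct repeat, were in 4 windows of all tested genes and in none of 28 windows of the fatty acid list, and those of the cyclic AMP response element (TGACGTCA) were in 2.59% of windows of genes called higher, 4.14% of those called lower and 3.78% of all, and in 4 of the 30 windows of immediate early genes (13.3%). The E2F letters (TTTCGCGC) were in 6 of 32 windows of the DNA replication list (18.75%), in 5 of 556 of genes called lower (0.899%) and in 0.805% of all. None of those 6 replication genes was called, and the 5 called lower belong to none of the lists.

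**Figure D2:**
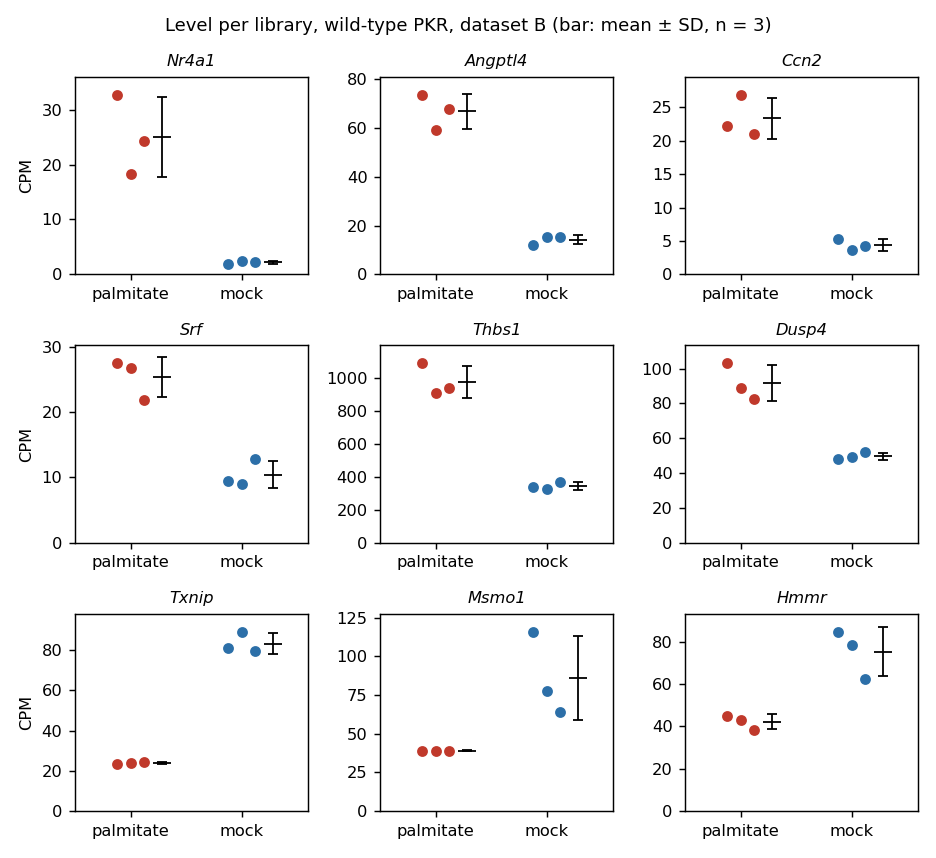
Level in CPM of 9 named messenger RNAs in each of the 3 palmitate (red) and 3 mock (blue) libraries of wild-type PKR, dataset B, with the mean and SD beside the points. In each panel every palmitate library lies on one side of every mock library: higher for Nr4a1, Angptl4, Ccn2, Srf, Thbs1 and Dusp4, and lower for Txnip, Msmo1 and Hmmr.

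Growth factor messages and inhibitors of the growth factor kinase cascade rose in the same libraries. Of 38 tested members of the list of growth factor signalling and ERK feedback, 11 rose and 3 fell, with a median of 0.33. The ligands Pdgfb (2.38), Lif (1.88), Vegfa (0.95), Pdgfa (0.84) and Csf1 (0.61) were called higher, as were the feedback inhibitors Dusp5, Spry4 (1.08), Dusp4 (0.89) and Spry2 (0.69). Dusp4, a nuclear phosphatase of ERK, had 103, 89.1 and 82.7 CPM with palmitate and 47.8, 49.0 and 51.8 CPM with mock (log2 fold change 0.89 ± 0.11, SE, adjusted p = 0.000174). The receptor Igf1r rose by 0.56. The 3 that fell were the transcription factor Etv1 (-0.61) and the receptors Pdgfra (-0.53) and Met (-0.49). The share of this list called lower was near the background. The rises were called in 9 to 12 members without any 1 library, but the falls were 1 without mock replicate 1 and 0 without mock replicate 2 or palmitate replicates 2 or 3. Pdgfb rests on 7 to 22 counts in the palmitate libraries and 2 to 4 in the mock libraries.

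Targets of transforming growth factor beta and of the mechanosensitive coactivator YAP rose without a fall among them: 15 of 34 tested members were higher and 0 lower, with a median of 0.36. Over the fits without 1 library, 11 to 14 were called. Ccn2, a secreted matrix protein and target of both pathways, had 22.2, 26.8 and 21.1 CPM with palmitate and 5.37, 3.65 and 4.18 CPM with mock, a log2 fold change of 2.39 ± 0.20 (SE, adjusted p = 2.72e-06). Thbs1, which encodes the matrix protein thrombospondin-1, was among the more abundant messages, at 978 ± 97.1 CPM with palmitate and 344 ± 23.2 CPM with mock (SD, n = 3 each), a log2 fold change of 1.51 ± 0.15 (SE, adjusted p = 1.36e-05). Ccn1 (1.72), Smad7 (1.31) and Skil (0.73) were also called. Smad7, Skil and Bambi (1.11) are inhibitors of the pathway, and Ltbp1 (0.40) encodes a protein that holds its ligand in the matrix. Ltbp2 (0.90) is a further member of the list.

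Actin and adhesion messages were higher as well: 16 of 62 tested members rose and 0 fell, with a median of 0.26. Plec, which encodes the cytoskeletal linker plectin, rose by 1.24. Flnc, which encodes a filamin that cross-links actin, had 517, 519 and 536 CPM in palmitate libraries and 206, 249.5 and 297 CPM in mock libraries. The groups did not overlap, the log2 fold change of Flnc was 1.06 ± 0.15 (SE, adjusted p = 0.00032), and that of the related Flna was 0.62. Zyx, which encodes zyxin of focal adhesions, rose by 0.93 ± 0.10 (SE, adjusted p = 5.81e-05), and Itga5, the fibronectin receptor subunit, by 0.85. The 16 became 10 without palmitate replicate 3. Among matrix genes, 13 of 56 rose, the highest of those called being Tnc (1.0), Col5a3 (0.90) and Col4a2 (0.82), and 4 fell, namely Mmp3 (-1.32), Adamts1 (-0.97), Dcn (-0.79) and Adamts5 (-0.64). Mmp3, Adamts1 and Adamts5 are matrix-degrading proteases and Dcn is a small proteoglycan. The share of matrix genes called lower was near the background. The fibroblast markers were higher in sum in every palmitate library than in every mock library, but not alike: Col1a1 was called higher, Fn1 and Vim were not called, and Pdgfra and Dcn were called lower. Their part in the result was not tested. The 13 rises fell to 6 without mock replicate 1 and to 7 without mock replicate 2 or any 1 palmitate replicate, and the 4 falls to 2 without mock replicate 1 or 2 or palmitate replicate 1 or 3.

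Few genes of fatty acid receptor targets and beta-oxidation were called higher, a share no greater than the background. Angptl4, a secreted inhibitor of lipoprotein lipase and a PPAR target, had 73.6, 59.4 and 67.8 CPM with palmitate and 12.1, 15.2 and 15.4 CPM with mock, a log2 fold change of 2.24 ± 0.16 (SE, adjusted p = 4.17e-07). Ppard, which encodes PPAR-delta, rose by 0.81 ± 0.18 (SE, adjusted p = 0.00661), and these were the 2 members called higher of 34 tested in the list of fatty acid receptor targets and beta-oxidation. Called lower were Cpt2 (-0.80), an enzyme of mitochondrial fatty acid import, the acyl-CoA synthetases Acsl3 (-0.78) and Acsl5 (-0.43), and the fatty acid-binding protein Fabp5 (-0.52). Other known PPAR targets did not pass: Pdk4 was at -0.22 ± 0.28 (SE, adjusted p = 0.640), Cpt1a at 0.14 ± 0.13 (SE, adjusted p = 0.507) and Plin2 at -0.04 ± 0.16 (SE, adjusted p = 0.890).

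Sterol synthesis had the highest share of members called lower of the 27 messenger RNA lists: 15 of 28 tested members fell and 0 rose, with a median of -0.48. Msmo1, a sterol methyl oxidase, had 39.0, 39.1 and 38.6 CPM with palmitate and 116, 77.8 and 63.7 CPM with mock, a log2 fold change of -1.14 ± 0.18 (SE, adjusted p = 0.000973). The palmitate libraries were almost level and all 3 mock libraries lay above them, replicate 1 highest. Idi1, the isomerase that makes the second isoprene unit, had 37.1, 36.7 and 33.1 CPM with palmitate and 74.4, 76.3 and 59.9 CPM with mock (-0.98 ± 0.15, SE, adjusted p = 0.000825). Sc5d (-1.01), Dhcr7 (-0.84), Fdft1 (-0.77), the sterol carrier Stard4 (-0.69) and the feedback regulator Insig1 (-0.65) fell too. Srebf2, the driver of the pathway, was not called, at 0.28 ± 0.12 (SE, adjusted p = 0.122). The count of 15 was 8 without palmitate replicate 2 and 9 without palmitate replicate 3. In the list of fatty acid synthesis and desaturation 5 of 21 fell and 0 rose: Elovl6 (-0.71), Scd2 (-0.54), Elovl5 (-0.49), Lpin1 (-0.49) and Scd1 (-0.49). That count was 3 without mock replicate 1 or 2 or palmitate replicate 3 and 2 without palmitate replicate 1. Scd2 was called in none of the fits without 1 library. Fasn, the fatty acid synthase, had 2184, 2091 and 2140.4 CPM with palmitate and 1964, 1769.6 and 1963 CPM with mock and was not called (0.17 ± 0.20, SE, adjusted p = 0.599).

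Txnip, an inhibitor of glucose uptake and of thioredoxin whose message follows glucose-derived metabolites, fell the most among the messages above 10 CPM that were called. Txnip had 23.5, 23.7 and 24.2 CPM in palmitate libraries and 81.1, 89.4 and 79.4 CPM in mock libraries, a log2 fold change of -1.81 ± 0.14 (SE, adjusted p = 2.1e-06). Replicates were tight on both sides. In the same list of 23 tested members the hexokinase Hk2 (0.70) and Pfkfb3 (0.71), which makes an activator of glycolysis, rose, and Pdk1 (-0.53) fell. With 2 members higher and 2 lower, both shares of this list were near the background. Pdk1 was not called without mock replicate 1 or 2 or palmitate replicate 1 or 3. Other messages called lower by the rule for large changes were Rspo3 (-2.04), a Wnt agonist at 0.414 CPM with palmitate and 1.85 CPM with mock, Card6 (-1.83), Rab30 (-1.60), Npy1r (-1.55), a neuropeptide Y receptor, and Trp53inp1 (-1.54), a p53-induced gene. Lrr1, Zfp970, 0610009B22Rik, Prrg1, Pank1 and Hist3h2a, with log2 fold changes from -1.57 to -1.36, completed the 12, and Pank1 was called in none of the fits without 1 library. Of those 6 fits, Prrg1 was called in 2, Lrr1 in 4 and Zfp970 in 5. At the other end the 12 highest also held Avil, Ovgp1, Gpr21, Spaca6, Ttll3, B230325K18Rik and Hivep3. Ttll3 was called in 3 of the 6 fits without 1 library. Hivep3 (Hivep3_ENSMUSG00000028634 in the files), a zinc-finger protein gene, had 43.5 CPM with palmitate and 10.1 CPM with mock on average (2.11 ± 0.15, SE, adjusted p = 4.17e-07). Hivep3 shares its position with a second feature of that name in the files, so its reads are uncertain. Avil, Ovgp1, Gpr21, Ttll3 and B230325K18Rik averaged below 5 CPM in both groups, and Gpr21 lies within Rabgap1 on the same strand and Avil overlaps Tsfm on the other, so their reads are uncertain.

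Cell-cycle messages were lower with palmitate. Of 40 tested genes of DNA replication and S phase, 11 fell and 0 rose (median -0.35), among them the cyclin Ccne2 (-1.11), Dtl (-0.80) and the histone message-binding protein Slbp (-0.65). Of 40 tested mitosis genes, 15 fell and 1, Cit (0.46), rose (median -0.32), and Cit was called in no fit without 1 library. Hmmr, a spindle protein, had 45.1, 43.2 and 38.3 CPM with palmitate and 84.8, 78.4 and 62.4 CPM with mock, a log2 fold change of -0.83 ± 0.13 (SE, adjusted p = 0.000865). Mki67, the proliferation marker, was at 763 ± 34.6 CPM with palmitate and 657 ± 8.61 CPM with mock (SD, n = 3 each) and was not called (0.22 ± 0.18, SE, adjusted p = 0.450). The count of 11 was 7 without mock replicate 2 and 4 without palmitate replicate 3, and the count of 15 was 8 without mock replicate 1, and 9, 5 and 4 without palmitate replicates 1, 2 and 3. Replication-dependent histone messages, which end in a stem-loop in place of a poly(A) tail and which Slbp binds, had 27 of 63 tested members lower and 0 higher, with a median of -0.79 and a highest value of -0.30. Hist1h3b had 21.4, 15.9 and 18.5 CPM with palmitate and 44.5, 36.1 and 35.9 CPM with mock (-1.05 ± 0.18, SE, adjusted p = 0.00137). Copies of histone genes are near-identical, so how reads were shared among them is uncertain. The 27 became 15 without palmitate replicate 2 and 8 without palmitate replicate 3.

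Messages for nucleolar proteins rose. Of 46 tested genes of ribosome biogenesis and snoRNP proteins, 15 were higher and 0 lower, with a median of 0.24, and 10 to 15 were called without any 1 library. Rrp12, a ribosome export factor, had 42.7, 31.8 and 35.3 CPM with palmitate and 15.8, 20.1 and 18.1 CPM with mock, a log2 fold change of 1.03 ± 0.14 (SE, adjusted p = 0.000317). Rrp1b (0.91), the H/ACA box snoRNP protein Gar1 (0.90), the helicase Ddx21 (0.87), the methyltransferase Nop2 (0.80) and the GTPase Gnl3 (0.78) were called as well, and Gnl3 carries the C/D box snoRNAs Snord19 and Snord69 within its span. The cytoplasmic ribosomal proteins themselves had 0 of 80 members higher and 7 lower, such as Rps27l (-0.75), Rps29 (-0.73) and Rpl7 (-0.65), with a median of -0.18. Their share called lower was near the background. Those 7 were 3 without mock replicate 2, 2 without palmitate replicate 1 or 3 and 1 without palmitate replicate 2. Splicing factors and nuclear RNA-binding proteins had 10 of 57 higher and 0 lower, led by the cyclins Ccnl2 (1.12) and Ccnl1 (0.85) and by Srsf5 (0.77), and 5 without palmitate replicate 3. Chromatin genes had 17 of 52 higher and 2 lower. The remodeller Chd7 (1.21), the DNA demethylation enzyme Tet3 (1.13), the histone demethylase Kdm6b (1.09) and the histone methyltransferase Kmt2d (0.97) rose, and Ezh2 (-0.57), the methyltransferase of Polycomb, and Kdm6a (-0.49) fell. The 17 became 9 without mock replicate 2 or palmitate replicate 3.

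Mitochondrial and lysosomal messages leaned the other way. Of 88 tested nuclear-encoded genes of the respiratory chain, 16 fell and 0 rose, with a median of -0.31, among them the cytochrome oxidase subunit Cox7b (-0.87) and the ATP synthase subunits Atp5j2 (-0.75) and Atp5f1 (-0.64). This count was 6 without mock replicate 2 and 8, 9 and 6 without palmitate replicates 1, 2 and 3. Among 35 genes of lysosome and autophagy, 10 fell and 0 rose, led by the mitophagy receptor Bnip3 (-1.32) and the membrane protein Lamp1 (-0.76). Without mock replicate 1 or 2 the 10 became 5, and without palmitate replicates 1, 2 and 3 they became 6, 3 and 4.

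**Figure D3:**
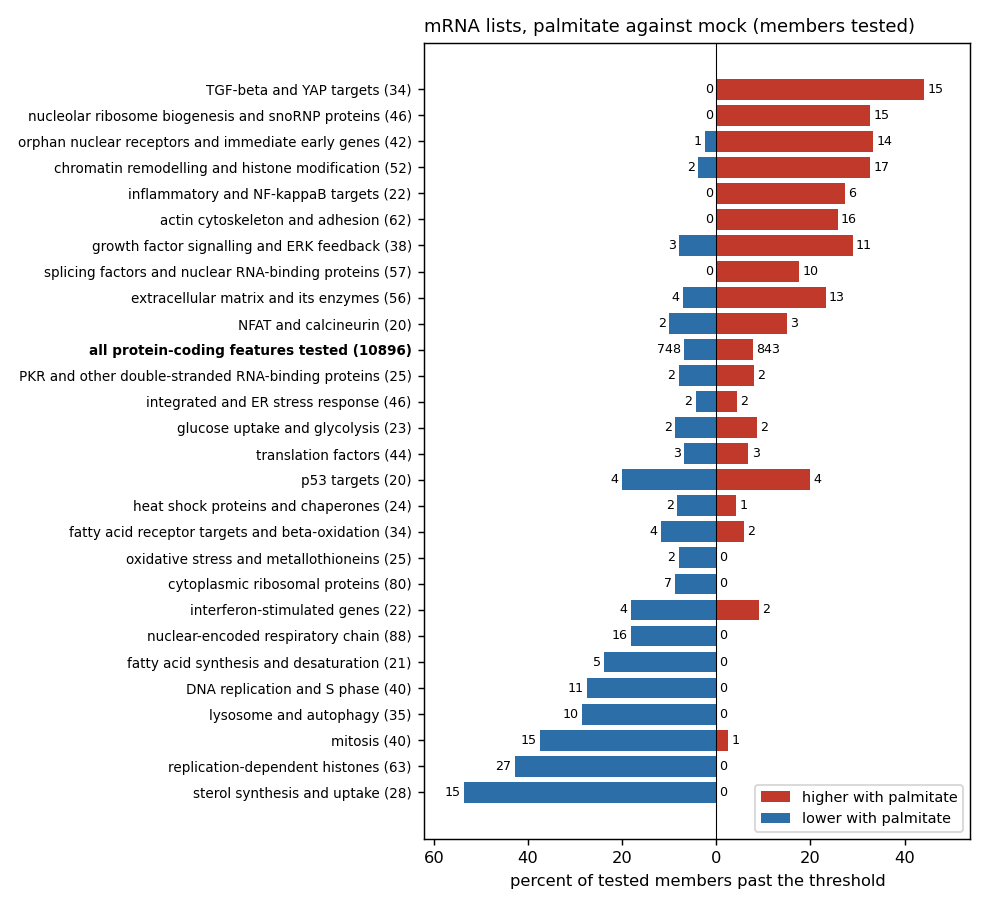
Percent of the tested members of each messenger RNA list called higher (red, right of 0) or lower (blue, left of 0) with palmitate, wild-type PKR, dataset B. The number tested stands in brackets and the number called beside each bar, and the row in bold gives all 10896 protein-coding features tested, of which 7.74% were higher and 6.86% lower.

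Stress and inflammation lists differed in how many members were called. The integrated and endoplasmic reticulum stress response had 2 of 46 members higher, Cebpb (1.05) and the amino acid transporter Slc7a1 (0.91), and 2 lower, Herpud1 (-0.74) and Manf (-0.61). Slc7a1 was called in every fit without 1 library, whereas Cebpb was called in 2 of those 6, Herpud1 in 4 and Manf in 3. Atf4, the transcription factor at the head of that response, was at 63.8 ± 6.82 CPM with palmitate and 62.9 ± 5.79 CPM with mock (SD, n = 3 each, log2 fold change 0.03 ± 0.12, SE, adjusted p = 0.914), and its targets Trib3 (-0.70 ± 0.23, SE, adjusted p = 0.0504) and Ddit3 (-0.96 ± 0.33, SE, adjusted p = 0.0575) had values below 0 without passing. Of 22 tested genes of inflammation and NF-kappaB, 6 rose and 0 fell, namely Ptgs2 (1.12), Nfkbie (1.07), Relb (0.97), Nfkbiz (0.93), Nfkb1 (0.57) and Nfkb2 (0.44), and 5 or 6 were called without any 1 library. Interferon-stimulated genes had 2 of 22 higher, Cxcl10 (1.37) and Adar (0.42), and 4 lower, Xaf1 (-0.89), Irf1 (-0.55), Stat2 (-0.52) and Ifit2 (-0.48). Their share called higher was near the background. The 2 rises were 0 without mock replicate 1 or palmitate replicate 1 or 2 and 1 without any 1 of the other libraries, and the 4 falls were 1 without mock replicate 2 or palmitate replicate 3 and 2 without palmitate replicate 2. Among 20 p53 targets, 4 rose (Aen 1.5, Plk3 1.12, Cdkn1a 0.81, Zmat3 0.62) and 4 fell (Trp53inp1 -1.54, Sesn1 -0.94, Ccng1 -0.68, Ccng2 -0.60). In the list of NFAT and calcineurin genes 3 of 20 rose, with Nfatc2 first at 17.6, 18 and 15.7 CPM with palmitate and 6.20, 7.16 and 6.02 CPM with mock (1.40 ± 0.16, SE, adjusted p = 6.33e-05), and 2 fell, among them the calmodulin gene Calm2 (-0.50). The rises were 5 without mock replicate 3, and the falls were 0 without mock replicate 2 or palmitate replicate 1 or 3 and 1 without palmitate replicate 2. Oxidative stress genes had 2 of 25 lower, the peroxiredoxins Prdx1 (-0.90) and Prdx6 (-0.39), and heat shock genes had 1 of 24 higher, Hsf1 (0.51), and 2 lower, Hspa13 (-0.91) and Hspe1 (-0.61). Prdx6 and Hsf1 were each called in 2 or fewer of the 6 fits without 1 library. Translation factors had 3 of 44 higher and 3 lower, the rises being 1 without mock replicate 2 or palmitate replicate 1, and the falls 1 without any 1 library other than mock replicate 3. PKR and other double-stranded RNA-binding proteins had 2 of 25 higher (Dicer1 0.47, Adar 0.42) and 2 lower (Ilf2 -0.47, Strbp -0.43). Without mock replicate 2 none of these 4 was called. The shares of this list and of translation factors were near the background, as were the shares called lower of the oxidative stress and heat shock lists. Both shares of the integrated and endoplasmic reticulum stress list were below the background in the main fit, but its share called lower depended on the fit. A fit of protein-coding features alone called 8 of 47 members lower, against 979 of all 10963 features in it. With the replicate as a block 6 of 46 members fell, against 770 of 10896 protein-coding features. Scaling by total counts left 2 falls, and fits that lacked 1 library gave 0 to 4.

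The 8 most abundant messages held 2 calls, Myh9 and Col1a1, both higher. Per kilobase, Lars2 had 8771 CPM, Vim 2061, Myh9 1997, Actb 1786, Nedd4 1221, Col1a1 692, Fn1 602 and Ahnak 280 over the 6 libraries. Lars2 had a log2 fold change of -0.27 ± 0.31 (SE, adjusted p = 0.594), and Vim, Actb, Nedd4, Fn1 and Ahnak were not called either. Myh9, the heavy chain of nonmuscle myosin, had 19888, 19290.0 and 18250.0 CPM with palmitate and 8836, 11299 and 12794 CPM with mock (0.80 ± 0.26, SE, adjusted p = 0.0481), and Col1a1 had a log2 fold change of 0.67 ± 0.22 (SE, adjusted p = 0.0442). Neither Myh9 nor Col1a1 was called in any of the fits without 1 library.

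Malat1, Neat1 and Meg3 are long noncoding RNAs that were called higher. Malat1 had 1425, 1752 and 2622 CPM with palmitate and 185, 334 and 745 CPM with mock (2.20 ± 0.44, SE, adjusted p = 0.00806), and Neat1 had 364, 428 and 672 CPM with palmitate and 48.9, 79.3 and 163 CPM with mock (2.33 ± 0.42, SE, adjusted p = 0.00661). Meg3 rose by 2.53 ± 0.41 (SE, adjusted p = 0.00513). For all 3, palmitate replicate 3 and mock replicate 3 were the highest of their groups. These 3 were chosen after their values were seen. By share of all counts, small nuclear RNAs had 1.21, 1.58 and 1.96% with palmitate and 0.299, 0.636 and 0.687% with mock, long intergenic noncoding RNAs 0.511, 0.634 and 0.861% with palmitate and 0.431, 0.205 and 0.299% with mock, and features of small Cajal body RNAs 0.0182, 0.0266 and 0.0286% with palmitate and 0.0166, 0.0117 and 0.0139% with mock. H/ACA box snoRNAs had 0.236, 0.281 and 0.368% with palmitate and 0.109, 0.1003 and 0.122% with mock, and 32 of 37 tested were called higher. Other snoRNA features averaged 6.95% with palmitate and 2.47% with mock. The microRNA class was lower, at 5.83, 6.15 and 4.72% with palmitate and 8.96, 6.83 and 6.99% with mock. In each of these 6 classes the groups did not overlap, and p = 0.1 in an exact permutation test, two-sided, the smallest that 3 against 3 libraries allow (adjusted p = 0.2 over 12 classes). In the other classes the groups overlapped. C/D box snoRNAs averaged 0.944% in both groups, with mock replicates 1, 2 and 3 at 2.18, 0.289 and 0.357%. Protein-coding features had 65.0 ± 2.41% with palmitate and 63.3 ± 1.85% with mock (SD, n = 3 each, exact permutation p = 0.4, adjusted p = 0.6), and the ratio of palmitate to mock was below 1, at 0.957, when Lars2, mitochondrial and ribosomal RNA features were left out. Of the 5 features chosen by the rule for other RNAs, Mir5125 (3.09) and Mir763 (3.07) lie within Srrm2 and Hmga2 on the same strand and the lincRNA ENSMUSG00000090335 (3.36) within Prrx1, so host reads cannot be told apart. The small nuclear RNAs Gm23732 (2.83) and ENSMUSG00000065000 (2.75) complete them, ENSMUSG00000065000 within Corin on the same strand. Called lowest were Mir19b-1 (-2.40), Mir98 (-2.29) and 3 tRNAs for valine with log2 fold changes of -1.86, -1.68 and -1.60, which are near-identical copies. None of these 5 was called in more than 2 of the 6 fits without 1 library. Of 174 microRNA features 14 had a log2 fold change above 0, and the median was -2.02, or -0.28 without mock replicate 1. Called were 7 higher and 2 lower, and the 2 became 46 without mock replicate 3, 6 without mock replicate 2 and 0 without mock replicate 1.

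Genes called higher had a higher GC content and a greater exon length than genes called lower. The median GC content was 54% in protein-coding features called higher, 44.3% in those called lower and 49.4% in all tested, and the median exon length 4742, 2886 and 3336 bases. Across 10753 protein-coding features with a GC value, the Spearman correlation of the log2 fold change with GC content was 0.38 and with exon length 0.27. This is across genes, which are not independent replicates. In 10 equal bins of protein-coding features by GC content, the median log2 fold change was -0.26 in the bin of lowest and 0.24 in the bin of highest GC content. With RM PKR the correlation with GC content was 0.12, and in dataset A it was -0.17. The part of GC content and length in the results was not tested beyond a fit with an offset for both in each library, added after the data were seen. That fit called 774 protein-coding features higher and 563 lower, against 1198 and 979 in a fit of protein-coding features alone.

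**Figure D4:**
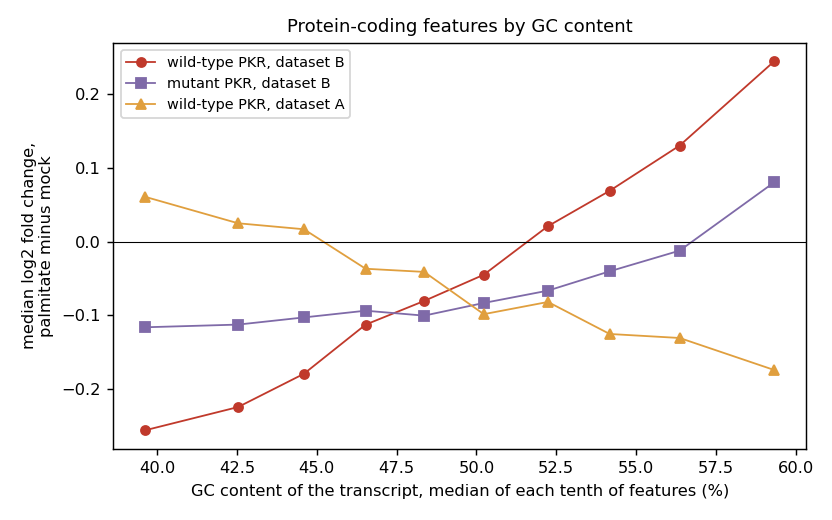
Median log2 fold change (palmitate minus mock) in each of 10 equal bins of the protein-coding features tested in both datasets, ordered by the GC content of the transcript. Points stand for wild-type PKR in dataset B (red circles), mutant PKR in dataset B (purple squares) and wild-type PKR in dataset A (orange triangles), and the line of wild-type PKR in dataset B climbs from -0.26 to 0.24 while that of dataset A goes down from 0.06 to -0.17.

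The lists are set here against the fit of protein-coding features alone, which has the same form without the offsets. With the offsets immediate early genes had 14 members higher and 1 lower, against 18 and 2 without them, TGF-beta and YAP targets 15 higher against 16, growth factor signalling 12 higher and 2 lower against 13 and 3, inflammation 6 higher against 7, and ribosome biogenesis 16 higher against 18. The median of the TGF-beta and YAP targets was 0.22 with the offsets and 0.38 without them. Sterol synthesis had 15 lower with the offsets against 17, DNA replication 9 lower against 13, lysosome and autophagy 9 lower against 12, and splicing factors 19 higher against 17. Counts of calls that moved by more than 1.5 times included the following. The respiratory chain had 2 members lower with the offsets against 16, ribosomal proteins 1 higher and 0 lower against 0 and 8, mitosis 11 lower against 18, actin and adhesion 13 higher against 24, matrix genes 5 higher and 2 lower against 19 and 4, and chromatin genes 10 higher and 4 lower against 19 and 2. Histones had 13 lower of 48 tested with the offsets, against 34 of 60 without them. The median of the ribosomal proteins was 0.07 with the offsets and -0.16 without them. Nr4a1, Angptl4, Ccn2 and Txnip stayed past the threshold in all 17 alternatives, these offsets included.

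The same treatment with RM PKR in dataset B gave 939 calls (7.53%) of its own, 633 higher and 306 lower. Of the 1175 features called higher with WT, 279 were called higher with RM, where their median was 0.40, against 0.83 with WT; of the 763 called lower, 92 were called lower with RM, where their median was -0.32, against -0.64 with WT. Since the WT values chose these features, the medians are a description. The difference between the forms was then tested directly, as the palmitate effect with WT minus that with RM, and 0 of 12466 features (0%) passed in edgeR, with 2011 at an unadjusted p under 0.05. DESeq2 called 340. Without WT mock replicate 3 the count was 110, without WT mock replicate 1 it was 5, without WT palmitate replicate 1 it was 1 and without RM palmitate replicate 1 it was 903. RM palmitate replicates 2 and 3 had TMM factors of 0.82 and 0.637, against 1 to 1.14 in the other libraries of dataset B, and without both of them the count was 0. Nr4a1 had log2 fold changes of 3.49 with WT and 2.97 with RM, Angptl4 of 2.24 with WT and 2.10 with RM, Ccn2 of 2.39 with WT and 2.55 with RM, and Txnip of -1.81 with WT and -1.66 with RM, each called in both. Of lists, immediate early genes had medians of 0.52 with WT and 0.58 with RM, and sterol synthesis of -0.48 with WT and -0.40 with RM, whereas histones were at -0.79 with WT and 0.55 with RM, ribosomal proteins at -0.18 with WT and 0.30 with RM, and the respiratory chain at -0.31 with WT and 0.03 with RM. Among the coding features with the smallest p on the WT side were Irf2bp1, Uhrf1bp1, Helz2 and Dock6, with palmitate effects of 0.64 to 0.77 with WT and -0.48 to -0.21 with RM. On the other side the 5 with the smallest p were Rpl26, Rps2, Mt1, Atp5j2 and Hist1h3b, with effects of -1.05 to -0.25 with WT and 0.36 to 1.29 with RM.

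**Figure D5:**
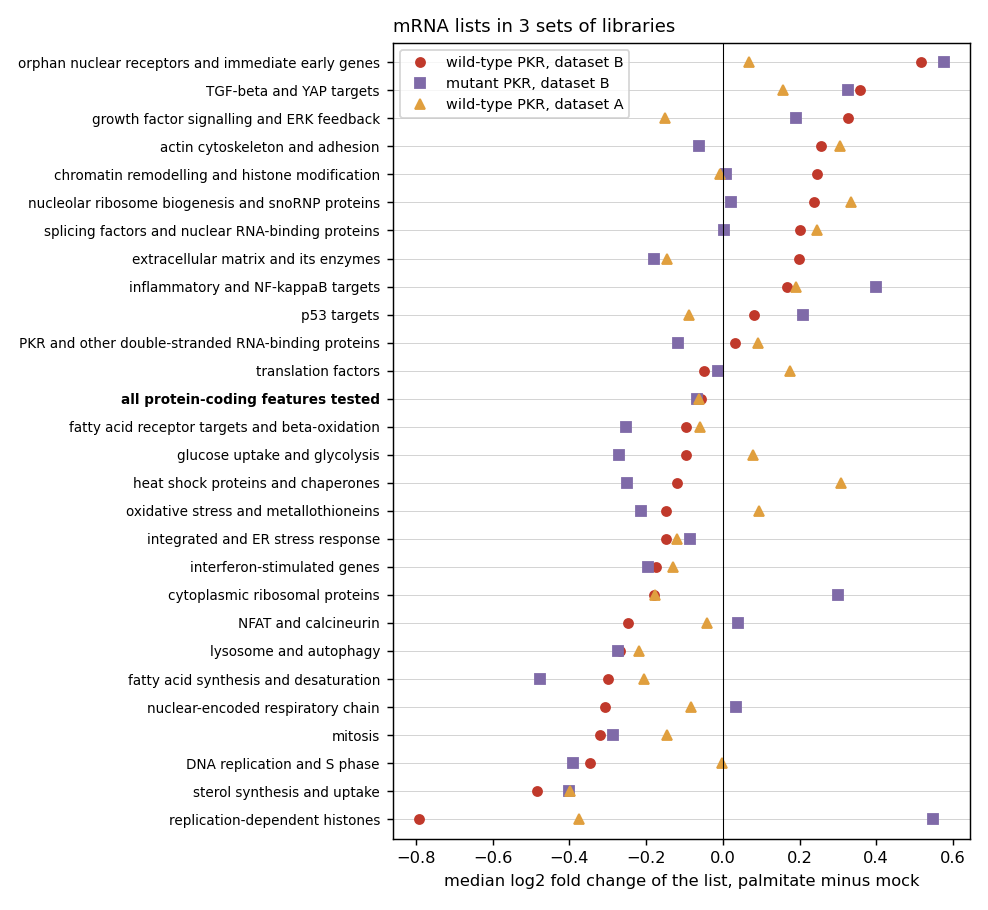
Median log2 fold change (palmitate minus mock) of each messenger RNA list with wild-type PKR in dataset B (red circles), with mutant PKR in dataset B (purple squares) and with wild-type PKR in dataset A (orange triangles). Immediate early genes lie at 0.52, 0.58 and 0.07 in that order, sterol synthesis at -0.48, -0.40 and -0.40, and replication-dependent histones at -0.79, 0.55 and -0.37; the row in bold is all protein-coding features.

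Dataset A, with separate libraries of WT PKR, called 38 of 11328 features (0.335%) for palmitate against mock. That count was 11, 6 and 8 without its mock replicates 1, 2 and 3, 81 and 7 without its palmitate replicates 1 and 2, and 60 by DESeq2. Of the features called in dataset B, 23 of 1175 higher (1.96%) and 5 of 763 lower (0.655%) were called in the same direction in dataset A; these are 23 of 27 (85.2%) and 5 of 10 (50%) of the features that dataset A called and dataset B tested. The 23 include Angptl4 (2.24 in dataset B, 2.25 in dataset A), Ccn2 (2.39 and 2.70), Nfatc2 (1.40 and 2.34), Samd4 (1.39 and 1.32), Slc20a1 (0.96 and 1.38), Pdlim5 (1.09 and 1.34), Ddx21 (0.87 and 1.18), Gnl3 (0.78 and 1.51), Baz1a (0.57 and 1.33) and Hk2 (0.70 and 1.43). The 5 are Osr2 (-1.36 and -1.63), a zinc-finger transcription factor, Adamts1 (-0.97 and -1.20), Adamts5 (-0.64 and -1.15), Zmat1 (-0.99 and -1.19) and Ston2 (-0.47 and -1.55). Among features tested in both datasets, 76.0% of those called higher in dataset B had a value above 0 in dataset A, where 47.4% of all features did, and 68.5% of those called lower had a value below 0, where 52.6% of all features did. The Spearman correlation of the log2 fold changes in both datasets was 0.25 across 11117 features. Txnip was at -1.81 in dataset B and -0.78 in dataset A, where it was not called (adjusted p = 0.219). Several list medians were unlike: 0.52 in B and 0.07 in A for immediate early genes, and 0.33 and -0.15 for growth factor signalling. Matrix genes were at 0.20 and -0.14, and DNA replication at -0.35 and -0.002. Medians were closer for sterol synthesis (-0.48 and -0.40), ribosome biogenesis (0.24 and 0.33) and actin and adhesion (0.26 and 0.30).

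The palmitate effect of dataset B minus that of dataset A passed for 24 of 12683 features (0.189%), with a difference above 0 for 15 and below 0 for 9. These signs do not give the strength of the response, since some features had effects of opposite sign. Lamb2 was at 0.57 in B and -0.66 in A, and H3f3a at -0.81 in B and 0.73 in A. Nr4a1 was among those with a difference above 0, with a log2 fold change of 3.49 in B and 0.98 in A. Its counts in dataset A, not scaled to depth, were 32, 20 and 26 with palmitate and 10, 13 and 10 with mock. These counts did not overlap, but Nr4a1 was not called in dataset A. Meg3 (2.53 in B, -0.07 in A), Neat1 (2.33 and -0.13) and Mir5125 (3.09 and -0.19) also differed. DESeq2 called 212. The count was 0 without replicate 1 or 2 of mock or replicate 3 of palmitate in dataset B, or without mock replicate 3 or palmitate replicate 2 in dataset A. It was 1 without mock replicate 1 of dataset A, 6 without palmitate replicate 2 of dataset B, 180 without mock replicate 3 of dataset B and 245 without palmitate replicate 1 of dataset A.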

How the data were processed

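RNA recovered with PKR from reconstituted mouse embryonic fibroblasts was sequenced after fragmentation and a small-RNA library preparation, per the labels' protocols. The authors deposited a whole-number count per feature and library, 30210 features to a table; CASAVA 1.7.0 and 1.8.2, Novoalign and the mm9 genome are named per the submitters' processing notes, whereas for the counting tool and for strand the sources used here state nothing. Of the per-sample columns, 24 with counts entered and 60 further ones did not. Of 29777 Ensembl IDs, 25755 were found in the GENCODE annotation used for names and classes. The authors deposited log2 ratios of palmitate over mock from variance-corrected counts, per the file headers, and a score per feature for that comparison, used only in the closing observations.

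Samples were grouped by the labels. Groups were compared with edgeR 4.0.16 (quasi-likelihood, TMM scaling, filterByExpr, robust dispersion; R 4.3.3, limma 3.58.1) with Benjamini-Hochberg adjustment at 0.05, and DESeq2 1.42.0 was an alternative. Dataset B was fitted over its 12 libraries, with a biological coefficient of variation of 0.191, and the script was tested on simulated data. Shares of RNA classes were compared with a two-sided exact permutation test. The labels call replicates biological, and p-values measure the spread between these samples. Counting precision follows from 3543807 to 6619405 counts in each of the 6 libraries.

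Named were the 12 protein-coding features with the highest and the 12 with the lowest log2 fold change among those called, whose mean in the higher group was at least 10 counts and whose libraries did not overlap between groups; 5 and 5 other features by the same rule; up to 4 members of each of the 32 lists with the smallest p; the 8 most abundant messages; 5 in each direction for each difference of effects; the PKR gene; and the features called alike in both datasets. Other genes named were chosen after their values were seen. The members and lists were chosen with earlier results of these data known. Some genes that this rule names are not reported here.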

Additional observations from a re-analysis of the deposited data

Results flagged for a closer look

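The palmitate effect with WT PKR differed between dataset B and dataset A for 24 features by the test of the difference in edgeR. Among the named messages, the difference in log2 fold change (dataset B minus dataset A) was 1.19 for Lamb2, 1.65 for Gabbr1 and 2.46 for Nr4a1, and -1.23 for Nedd9, -1.15 for Nadk2, -1.59 for H3f3a and -1.26 for Medag. Gabbr1 and Nr4a1 had values above 0 in both datasets, whereas Lamb2, Nedd9, Nadk2, H3f3a and Medag had values of opposite sign in them. Slc7a3 (4.56), Ccdc92 (3.94) and Mbnl3 (-6.39) rest on few counts, since Slc7a3 had 5, 3 and 6 counts with palmitate and 0, 0 and 2 with mock in dataset B, Ccdc92 had 0, 0 and 2 with palmitate and 7, 10 and 5 with mock in dataset A, and Mbnl3 had 4, 3 and 2 with palmitate and 0, 0 and 0 with mock in dataset A. Groups held 3 libraries, so no library was tested for standing far from the others of its group.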

How the results depend on the processing

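For palmitate against mock with WT PKR in dataset B, 1938 features were called. The count was 1084 with scaling by total counts and 923 to 2154 without 1 library, and within 1.5 times the reported count under the other alternatives. The fits with offsets for GC content and length tested protein-coding features alone, however. They called 1337, and 1380 with the replicate block, whereas the fit of these features without offsets called 2177, more than 1.5 times as many. Scaling by total counts gave 724 higher and 360 lower. For WT minus RM the count of 0 became 119 with scaling by total counts, 340 with DESeq2 and 125 with no filter on low counts, and 0 to 903 without 1 library. For dataset B minus dataset A the count of 24 became 49 with scaling by total counts, 212 with DESeq2, 153 with no filter and 0 to 245 without 1 library. In dataset A the count of 38 became 6 with scaling by total counts, 60 with DESeq2, 197 with no filter, 12 with its 6 WT libraries alone and 6 to 81 without 1 library. The cause of these shifts was not tested, beyond the fewer samples of each fit without a library. Same-numbered palmitate and mock libraries of WT PKR in dataset B did not deviate together (correlations -0.118, 0.0068 and 0.0131). RM libraries and those of dataset A were not compared in this way. With 3 libraries a group, these correlations cannot show whether same-numbered libraries shared a preparation. With the replicate as a block the counts were 2021 for dataset B, 46 for WT minus RM, 126 for dataset B minus dataset A and 31 for dataset A. Of 197 named features 178 were called, 131 of them in every fit without 1 library that tested them and 114 under every alternative that tested them, which were 12 to 17 by feature, and 0 reversed. Features with few counts, such as Pdgfb and Rspo3, are limited by depth. Ratios of the palmitate to the mock share of an RNA class crossed 1 for a few classes: without Lars2, mitochondrial and ribosomal RNA features the ratio was 0.959 for C/D box snoRNAs and 0.957 for protein-coding features, and without 1 library it was 0.743 to 2.92 for C/D box snoRNAs, 0.881 to 1.20 for other noncoding RNAs and 0.561 to 1.03 for tRNAs.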

Other observations

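In the authors' deposited table, 1967 features passed the score of 13.01 that stands for a false discovery rate of 0.05 in the comparison of palmitate with mock, 1206 higher and 761 lower, and 1394 of the features called here with edgeR were among them. A further score in the authors' deposited table, for the use of exons, was passed by 281 features.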
